A study of Mus musculus with 15 samples.

Results

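The 31 stem and progenitor regulators described here are the genes of a list made for blood progenitors: 28 transcription factors and their cofactors, and 3 genes for surface or secreted proteins of early progenitors (Cd34, Cd93 and Igfbp4). Each was taken as the probe set that carries its symbol and no other. All 31 were measured, among 19938 genes with such a probe set. Mecom had 2 probe sets and the one with the higher mean was used. The list was not chosen by measured values, but it was drawn up with earlier results of these data known.

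Transcription factors such as Runx1, Myb, Tal1, Erg, Meis1 and the HoxA proteins build and keep the blood stem cell programme, and most are turned down as cells commit to a lineage. A common dendritic cell progenitor (CDP) is a bone marrow cell committed to dendritic cells, and Zbtb46, a zinc finger factor of classical dendritic cells, marks its further commitment. Id2 is a helix-loop-helix protein without a DNA-binding region that pairs with E proteins and keeps them off their E-box sites. Batf3 is a basic leucine zipper factor needed for the classical dendritic cells of the cDC1 type.

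The 6 groups came from mouse bone marrow: Zbtb46-GFP+ cells with intermediate c-Kit of Id2 KO, Batf3 KO and WT origin, and CDPs of the same 3 origins. The labels describe the Id2 KO and WT cells as coming from Zbtb46-GFP chimeric mice and the Batf3 KO cells from Zbtb46-GFP mice, so all groups carry the reporter, and the kind of host cannot be told apart from Batf3 genotype. The labels give no age, strain, sex or host treatment. There were 2 arrays per CDP group and 3 per Zbtb46-GFP+ group, and nothing says that replicates came from separate animals, so p-values measure the spread between these arrays, which may be technical. The question was which regulators that fall between the CDP and the Zbtb46-GFP+ stage stay high without Id2 or Batf3.

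The 3 arrays numbered replicate 1 among the Zbtb46-GFP+ cells had median signals between 23.8 and 24.1, and the remaining 12 between 100.8 and 112.1. Those 3 arrays also share identical values at many probe sets, so they are described apart and every test below uses the 12 arrays, 2 per group. On these, the target gene Id2 differed by -3.13 in Id2 KO against WT Zbtb46-GFP+ cells, and Batf3 by -2.82 in Batf3 KO against WT (differences of log2 signal), the direction the labels call for. Zbtb46 itself averaged 6.02 in Id2 KO, 6.002 in Batf3 KO and 7.08 in WT Zbtb46-GFP+ cells, so the knockout cells sorted on the reporter had a Zbtb46 signal near that of WT CDPs, 6.002. The dendritic progenitor markers Flt3 and Irf8 averaged at least 11.289 in every group. They belong to a list of 8 defining genes, which also holds the target genes Id2 and Batf3 and the sorting genes Zbtb46 and Kit. Against WT Zbtb46-GFP+ cells, 2 of the 8 were higher and 4 lower in Id2 KO (limma, background 1.09% and 0.717%). The 4 lower were Id2, Batf3, Zbtb46 and Kit. In Batf3 KO 2 were lower, Batf3 and Zbtb46, and none higher (background 0.226% and 0.11%). Each count of lower genes thus includes the target gene itself. Batf3 read 8.214 and 8.375 in Id2 KO, against 9.993 and 9.852 in WT Zbtb46-GFP+ cells. Xist was at least 11.9 on all WT arrays and at most 5.71 on all knockout arrays of the 12, with the Y-linked Kdm5d the other way round, so sex and genotype cannot be told apart on these 12. The replicate 1 arrays differ in this: Xist was 3.66 on the one labelled Id2 KO, 11.02 on the one labelled Batf3 KO and 10.53 on WT, and Kdm5d was 4.05 in Id2 KO and 2.9 in both others, so the array labelled Batf3 KO had the pattern of WT and not of the other 4 Batf3 KO arrays. Its Batf3 signal was 6.05, against 7.20 on the WT replicate 1 array, and 6.53 was read on the Id2 KO one.

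Promoter sequence is shown for 3 of the genes that stayed above WT without Id2 in Zbtb46-GFP+ cells. It is also shown for Cd34, which did not. The reason is that Id2 acts on proteins that bind E-boxes. Each run is the 250 bases before the gene's start, 5′ to 3′ on the gene's strand, from RefSeq (GRCm38.p6), with 2 kinds of E-box in capitals: CAGCTG, which reads the same on both strands, and CACCTG, which is CAGGTG on the other strand. They lie at chr16:92826075-92826324 on the minus strand (Runx1, at 1 of 2 starts in the table), chr13:28953700-28953949 on the minus strand (Sox4), chr10:21160985-21161234 on the minus strand (Myb) and chr1:194938571-194938820 on the plus strand (Cd34).
Runx1: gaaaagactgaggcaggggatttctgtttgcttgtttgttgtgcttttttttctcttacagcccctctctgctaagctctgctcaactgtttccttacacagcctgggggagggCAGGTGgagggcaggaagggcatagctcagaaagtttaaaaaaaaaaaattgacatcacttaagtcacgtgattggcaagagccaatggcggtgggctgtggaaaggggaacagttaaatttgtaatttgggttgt
Sox4: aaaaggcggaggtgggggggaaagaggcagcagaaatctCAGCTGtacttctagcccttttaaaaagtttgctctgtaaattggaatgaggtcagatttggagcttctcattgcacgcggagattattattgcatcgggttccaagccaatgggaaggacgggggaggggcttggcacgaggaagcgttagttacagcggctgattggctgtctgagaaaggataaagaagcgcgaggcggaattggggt
Myb: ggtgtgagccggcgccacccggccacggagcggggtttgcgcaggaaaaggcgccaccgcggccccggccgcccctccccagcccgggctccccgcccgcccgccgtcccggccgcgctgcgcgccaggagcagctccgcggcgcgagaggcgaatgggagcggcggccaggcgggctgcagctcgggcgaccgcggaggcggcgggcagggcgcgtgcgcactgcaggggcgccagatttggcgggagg
Cd34: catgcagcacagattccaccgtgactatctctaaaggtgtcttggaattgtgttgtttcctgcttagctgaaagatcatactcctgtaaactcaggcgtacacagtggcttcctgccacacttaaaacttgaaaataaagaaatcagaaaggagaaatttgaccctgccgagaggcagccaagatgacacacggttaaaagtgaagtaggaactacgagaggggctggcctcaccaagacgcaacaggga
The Runx1 window holds 1 such E-box, which starts 136 bases before the gene's start. The window at the other Runx1 start, not shown, holds neither kind. The Sox4 window holds 1, which starts 211 bases before it. The Myb and Cd34 windows hold none. Of 32851 promoter windows of this length, 27.7% hold CAGCTG or CACCTG on either strand, and 8 of the 40 windows of the 24 members with an entry do, those of Erg, Gfi1, Hlf, Lyl1, Runx1, Runx3, Satb1 and Sox4. Other motifs were searched on both strands too. The Runx motif TGTGGT is in 14.0% of all windows and in those of Meis1 and Runx3. The GATA motif AGATAA is in 9.99% of all windows and in those of Erg and Tal1. The PU.1 motif GAGGAAG is in 10.6% of all windows and in those of Hoxa9, Mef2c and Sox4. Igfbp4, which also stayed above WT without Id2, has an entry and neither E-box. Erg has CACCTG and no called difference, but its signal in Zbtb46-GFP+ cells is low enough to hide one. Whether these letters bear on any change was not tested. A match is a description of letters and not of binding. Cd93, Lmo2, Spi1, Ets1, Fli1, Ikzf2 and Myc had no entry.

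In WT cells every call among the regulators was downward. Of the 31 members, 16 were lower in Zbtb46-GFP+ cells than in CDPs and none was higher, against a background of 6.38% of all genes lower and 4.71% higher (limma, Benjamini-Hochberg adjusted p under 0.05 over all genes). The median member changed by -0.50 on the log2 scale, against 0.03 for all genes. The 16 were the surface and secreted genes Cd93, Igfbp4 and Cd34, and the factors Sox4, Myb, Erg, Satb1, Hoxa9, Runx1, Meis1, Lyl1, Hoxa7, Tal1, Mef2c, Lmo2 and Etv6. In bulk samples, fewer cells that express a gene and less RNA per cell cannot be told apart.

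Cd93, a lectin-domain receptor carried by early progenitors (chromosome 2), had the largest change. Its log2 signal was 7.39 and 7.81 in WT Zbtb46-GFP+ cells, against 11.63 and 11.62 in WT CDPs. The step was -4.03 (SE 0.19, adjusted p = 5.83e-07, limma), which is 16.3-fold lower.

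Igfbp4, a secreted protein that binds insulin-like growth factors (chromosome 11), came next. It measured 6.995 and 6.97 in WT Zbtb46-GFP+ cells, against 10.83 and 10.81 in WT CDPs, a step of -3.84 (SE 0.12, adjusted p = 1.74e-08, limma). No array of one stage overlapped the other for either gene. Cd34, the sialomucin used to sort stem cells, measured 8.97 and 8.997 in WT Zbtb46-GFP+ cells, against 11.31 and 11.54 in WT CDPs, a step of -2.44 with SE 0.15.

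Among the factors, Sox4, which is needed for B cell development, stepped by -2.31 (SE 0.19) and Myb, which stem cells need to renew, by -2.28 (SE 0.15). Erg, an Ets factor of stem cell maintenance, measured 6.92 and 6.92 in WT Zbtb46-GFP+ cells, against 9.14 and 8.51 in WT CDPs. Its step was -1.91 (SE 0.22). Satb1, a chromatin organiser of lymphoid cells, measured 9.56 and 10.17 in WT Zbtb46-GFP+ cells, against 11.48 and 11.02 in WT CDPs, a step of -1.38 (SE 0.21). In each of these genes both WT Zbtb46-GFP+ arrays lay below both WT CDP arrays.

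Of the Hox and Meis members, Hoxa9, Meis1 and Hoxa7 fell in WT cells. Hoxa9 measured 6.82 and 6.78 in WT Zbtb46-GFP+ cells, against 8.42 and 7.89 in WT CDPs, a step of -1.35. Its partner Meis1 measured 7.41 and 7.37 in WT Zbtb46-GFP+ cells, against 8.67 and 8.14 in WT CDPs, a step of -1.02. Hoxa7 stepped by -0.72 and passed. Hoxa10 changed by -0.02 and did not pass, but its group means of at most 5.52 cannot be told from background, so a fall could not show. Of 7 other HoxA genes measured, 1 was lower in the WT step, Hoxa5 with -0.83.

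Tal1 and Lyl1 are basic helix-loop-helix factors that pair with E proteins, and Lmo2 bridges them to GATA factors. All 3 fell in WT cells, with steps of -0.68 for Tal1, -0.93 for Lyl1 and -0.53 for Lmo2. Runx1, the factor that founds definitive blood formation, stepped by -1.15 (SE 0.21, adjusted p = 0.00548, limma). Mef2c, a MADS-box factor of lymphoid and myeloid choice, stepped by -0.65, and Etv6, an Ets repressor that stem cells need, by -0.45.

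The other 15 members did not pass in the WT step. Ikzf1, the zinc finger factor Ikaros, changed by -0.42 (adjusted p = 0.0639, limma). The Ets factors Spi1 (PU.1) and Fli1 kept high signals in every group, with means of at least 10.0, and steps of 0.04 each. Spi1 also varied most between replicates: the 2 Batf3 KO Zbtb46-GFP+ arrays read 11.48 and 10.00. Gata1, Gata2, Gfi1, Hlf, Mecom, Ikzf2, Hoxa10, Ets1 and Mycn had group means under 7.3 throughout, and without detection calls a low signal cannot be told from background. Runx3, Hhex and Myc changed by -0.50, -0.38 and -0.34.

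Some calls of the WT step depend on which arrays are in the fit. Without WT CDP replicate 1, which leaves 1 array in that group, fewer members were called. Fewer genes were called over all genes too, so this loss is not particular to the members. The 9 members kept without any 1 of the 12 arrays are Myb, Hoxa9, Erg, Lyl1, Sox4, Satb1, Cd34, Cd93 and Igfbp4.

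**Figure D1:**
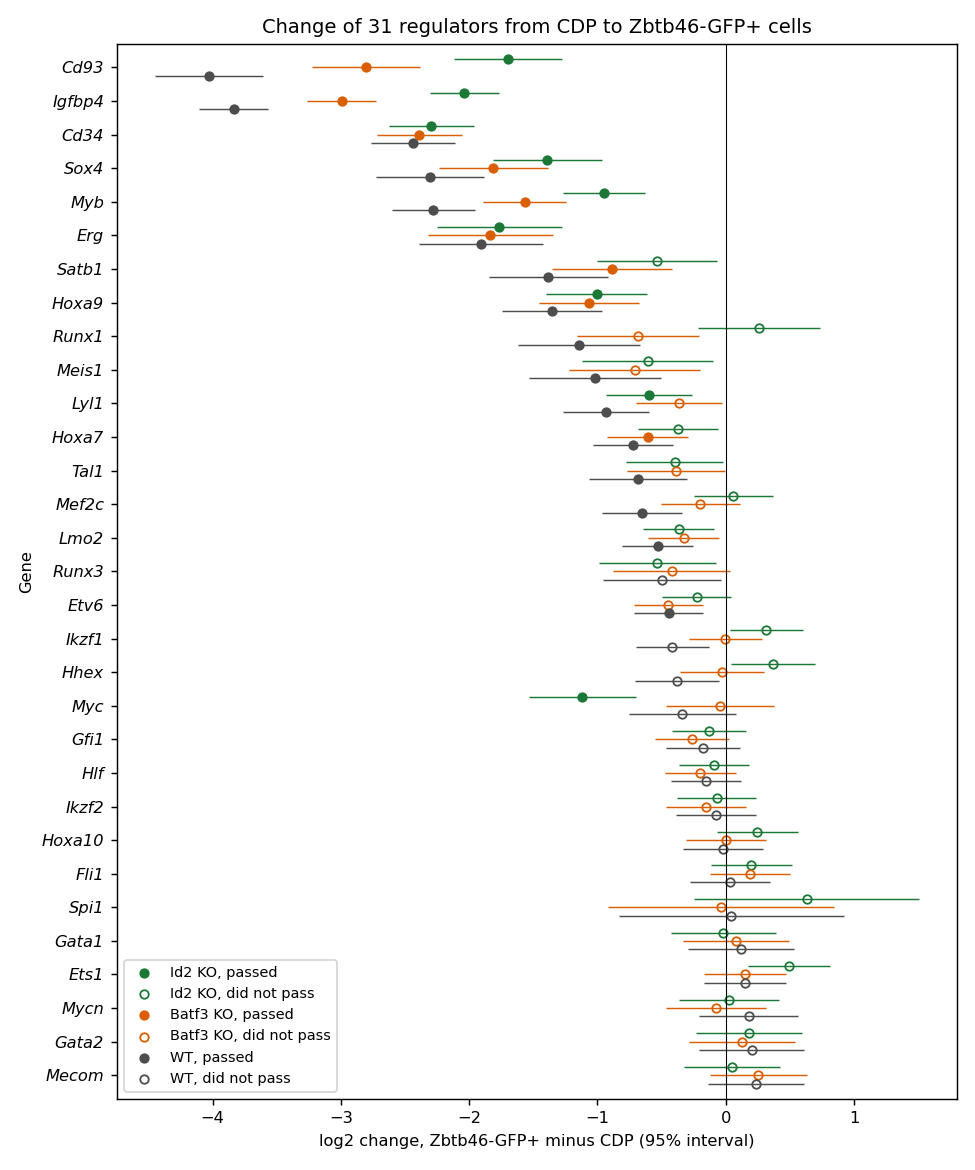
Log2 change from CDP to Zbtb46-GFP+ cells (x axis) for the 31 members (y axis, ordered by the WT change), in Id2 KO, Batf3 KO and WT cells from top to bottom within a gene, with 95% intervals from limma on 12 arrays; filled points passed an adjusted p of 0.05. The WT points of Cd93 and Igfbp4 lie near -4 and their Id2 KO points near -2, while the points for Cd34 and Erg lie close together.

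Without Id2, 9 of 31 members were lower in Zbtb46-GFP+ cells than in CDPs (background 2.98% lower), and without Batf3 also 9 (background 3.32% lower). No member was higher in either step, where the background was 3.84% in Id2 KO and 3.87% in Batf3 KO. Cd93, Igfbp4, Cd34, Sox4, Myb, Erg and Hoxa9 passed in all 3 genotypes. Satb1 passed also in Batf3 KO (-0.88) and not in Id2 KO (-0.53), Hoxa7 likewise (-0.61 in Batf3 KO, -0.37 in Id2 KO), and Lyl1 passed in Id2 KO (-0.60) and not in Batf3 KO (-0.36). Leaving out single arrays cost the calls of Hoxa7 and Satb1 in Batf3 KO and of Hoxa9, Lyl1 and Myc in Id2 KO. The 3 steps use different arrays, but a call in 1 genotype and none in another is not a test of the difference, which the interactions below give.

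Set directly against WT within Zbtb46-GFP+ cells, 6 members were higher in Id2 KO and none lower, where 1.09% of all genes were higher and 0.717% lower. They were Cd93, Igfbp4, Runx1, Myb, Sox4 and Ikzf1. Without Batf3, 2 members were higher and none lower, Cd93 and Igfbp4, where 0.11% of all genes were higher and 0.226% lower. The median difference of the 31 members was 0.13 for Id2 KO and 0.06 for Batf3 KO, where the medians over all genes were -0.015 and 0.007. Both knockouts are set against the same 2 WT arrays. With 2 arrays per group, a lack of overlap alone says little. Cd34 in Batf3 KO did not overlap WT either, at a difference of 0.12 that did not pass.

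Cd93 read 9.62 and 9.92 in Id2 KO, 9.02 and 8.54 in Batf3 KO, and 7.39 and 7.81 in WT Zbtb46-GFP+ cells. The 3 genotypes did not overlap. The difference from WT was 2.17 in Id2 KO (SE 0.19, adjusted p = 1.86e-04, limma), or 4.51-fold, and 1.19 in Batf3 KO (SE 0.19, adjusted p = 0.0267, limma), or 2.28-fold. In CDPs, Cd93 read 11.39 and 11.55 in Id2 KO, 11.65 and 11.52 in Batf3 KO, and 11.63 and 11.62 in WT, so all 6 CDP arrays lay between 11.39 and 11.65. The Id2 KO interaction with stage was 2.33 (SE 0.27, adjusted p = 0.00520, limma).

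Igfbp4 read 8.78 and 8.71 in Id2 KO, 8.11 and 7.86 in Batf3 KO, and 6.995 and 6.97 in WT Zbtb46-GFP+ cells. The difference from WT was 1.76 in Id2 KO (SE 0.12, adjusted p = 4.18e-05, limma) and 1.00 in Batf3 KO (SE 0.12, adjusted p = 0.00392, limma). CDPs read 10.78 and 10.77 in Id2 KO, 11.01 and 10.95 in Batf3 KO, and 10.83 and 10.81 in WT. The Id2 KO interaction was 1.80 (SE 0.17, adjusted p = 0.00154, limma). Igfbp4 was also the one member of 31 called between the knockouts, 0.76 higher in Id2 KO than in Batf3 KO (SE 0.12, adjusted p = 0.0239, limma; background 0.261% higher). For Cd93 that difference was 0.99 and did not pass (adjusted p = 0.0520, limma).

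Myb (chromosome 10) read 9.67 and 9.60 in Id2 KO, 9.25 and 8.97 in Batf3 KO, and 8.35 and 8.51 in WT Zbtb46-GFP+ cells, again without overlap. The Id2 KO difference from WT was 1.21 (SE 0.15, adjusted p = 0.00172, limma), or 2.31-fold. The Batf3 KO difference was 0.68 and did not pass (adjusted p = 0.132, limma). In CDPs Myb read 10.44 and 10.73 in Id2 KO, 10.71 and 10.65 in Batf3 KO, and 10.77 and 10.65 in WT. The Id2 KO interaction was 1.33 (SE 0.21, adjusted p = 0.0226, limma).

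Runx1 (chromosome 16) read 10.07 and 9.76 in Id2 KO, 9.02 and 9.24 in Batf3 KO, and 8.47 and 8.91 in WT Zbtb46-GFP+ cells. The CDPs read 9.44 and 9.87 in Id2 KO, 9.70 and 9.93 in Batf3 KO, and 10.04 and 9.63 in WT. Its stage step was 0.26 in Id2 KO and did not pass (95% interval -0.21 to 0.73), against -0.69 in Batf3 KO, which also did not pass, and -1.15 in WT. It was 1.22 higher in Id2 KO than in WT Zbtb46-GFP+ cells (SE 0.21, adjusted p = 0.0146, limma), and the interaction of 1.41 did not pass (adjusted p = 0.111, limma).

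Sox4 (chromosome 13) read 7.496 and 7.65 in Id2 KO, 6.90 and 7.28 in Batf3 KO, and 6.85 and 6.51 in WT Zbtb46-GFP+ cells. Its CDP values were 8.86 and 9.06 in Id2 KO, 8.83 and 8.98 in Batf3 KO, and 9.22 and 8.76 in WT. The Id2 KO difference in Zbtb46-GFP+ cells was 0.89 (SE 0.19, adjusted p = 0.0442, limma), so Sox4 stayed above WT while it still fell below the CDP level.

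Ikzf1 read 11.02 and 10.89 in Id2 KO, 10.65 and 10.71 in Batf3 KO, and 10.32 and 10.40 in WT Zbtb46-GFP+ cells. In CDPs it read 10.57 and 10.71 in Id2 KO, 10.76 and 10.61 in Batf3 KO, and 10.87 and 10.68 in WT. Ikzf1 was 0.60 higher in Id2 KO than in WT Zbtb46-GFP+ cells (SE 0.13, adjusted p = 0.0443, limma). Its WT step did not pass, so it is not counted among genes kept high.

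**Figure D2:**
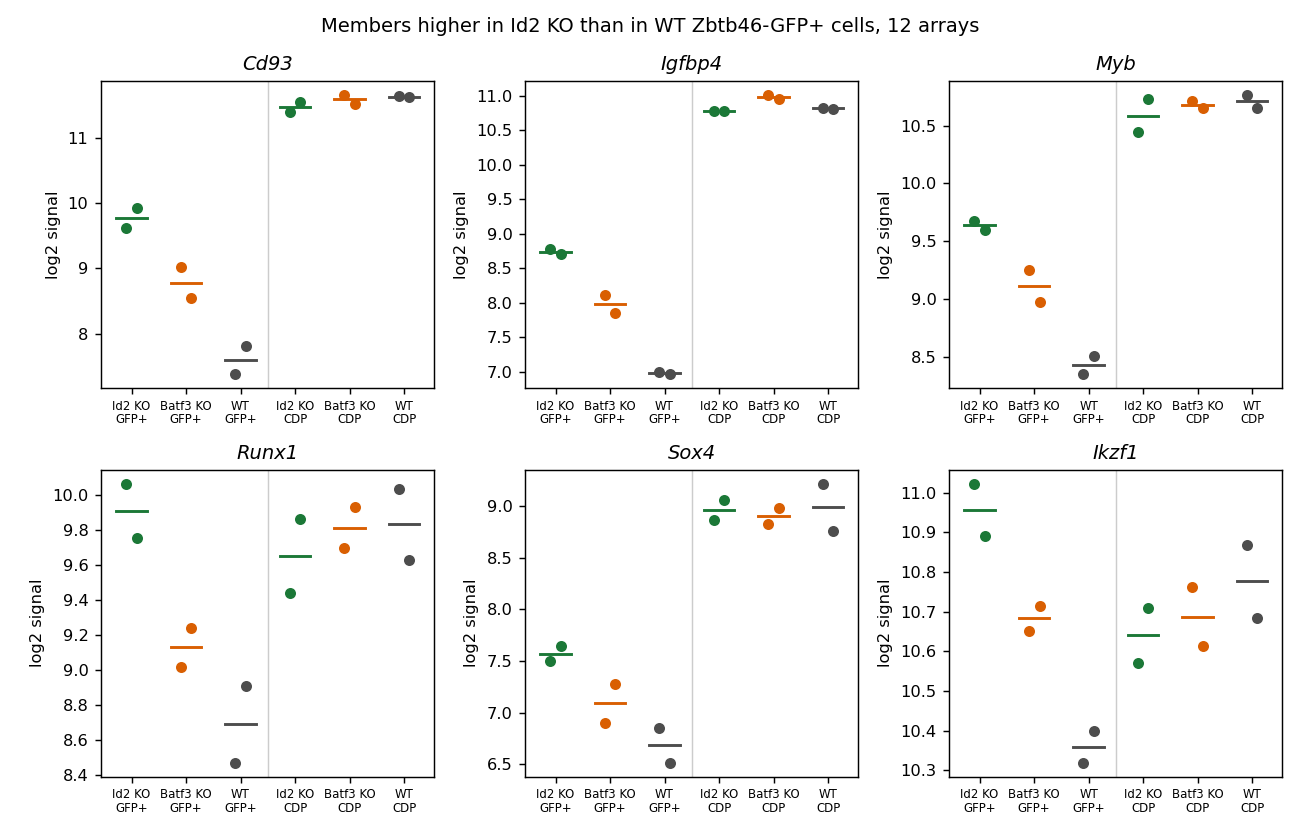
Log2 signal (y axis, a separate range per gene) on each of the 12 arrays for the 6 members higher in Id2 KO than in WT Zbtb46-GFP+ cells; points are arrays, short lines are means of 2, with the 3 Zbtb46-GFP+ groups left of the 3 CDP groups. In all 6 genes both Id2 KO Zbtb46-GFP+ arrays lie above both WT ones, and the Batf3 KO mean lies between them.

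Read by the rule that a member is kept high where it is lower in the WT step and then higher in the knockout than in WT Zbtb46-GFP+ cells or has a positive interaction, 5 of the 16 members lower in WT were kept high in Id2 KO (Cd93, Igfbp4, Myb, Runx1 and Sox4) and 2 in Batf3 KO (Cd93 and Igfbp4). Over all genes the same rule takes 0.497% for Id2 KO and 0.0351% for Batf3 KO, or 7.78% and 0.55% of the genes lower in the WT step. The rule was applied with the same WT arrays on both sides, so a low WT Zbtb46-GFP+ reading enters both. Kept high here means above WT Zbtb46-GFP+ cells and not held at the CDP level. In Id2 KO the step was still -1.70 for Cd93, -2.04 for Igfbp4 and -0.95 for Myb, and Sox4 also fell. Runx1 alone of the 5 had no called fall there. In Batf3 KO the step was -2.81 for Cd93 and -2.995 for Igfbp4.

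The calls differ in firmness. Myb, Cd93 and Igfbp4 stayed higher in Id2 KO without any 1 of the 12 arrays, with adjusted p up to 0.0305, 0.00505 and 0.00135 in that order (limma). Runx1 lost its call without WT Zbtb46-GFP+ replicate 2 (adjusted p = 0.0948), Id2 KO Zbtb46-GFP+ replicate 2 (0.180) or replicate 3 (0.0623), over a range of 0.0129 to 0.180, and also when all 15 arrays were fitted with the 3 others marked, or under 75th percentile centring (up to 0.0662). Sox4 lost it in 8 of 12 fits that left out 1 array and Ikzf1 in 10 of 12. Some of these arrays lie outside the comparison and enter only the shared spread. Without them the difference stayed at 0.89 for Sox4 and 0.60 for Ikzf1. Over the 12 fits it ran from 0.73 to 1.06 for Sox4 and from 0.53 to 0.66 for Ikzf1.

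Both Batf3 KO calls rest on few arrays. Without Batf3 KO Zbtb46-GFP+ replicate 2 neither gene passed, at an adjusted p of 0.324 for Cd93 and 0.0757 for Igfbp4 (limma; ranges over the 12 such fits 0.0262 to 0.324 and 0.00866 to 0.0757). Cd93 was also lost without WT Zbtb46-GFP+ replicate 2, where the difference was 0.98. It was lost without either Batf3 KO CDP array too, but its difference stayed at 1.19 there. Those CDP arrays enter this comparison only through the shared spread. When all 15 arrays were fitted, with a term marking the 3 others, the adjusted p was 0.137 for Cd93 and 0.834 for Igfbp4. The call of Igfbp4 between the knockouts was lost without Batf3 KO Zbtb46-GFP+ replicate 3 (0.240) or Id2 KO Zbtb46-GFP+ replicate 2 (0.25) or 3 (0.151). The Id2 KO interaction of Myb was lost in 8 of 12 such fits. Among them were those without either Batf3 KO CDP array, where it stayed at 1.33. The Id2 KO interaction of Igfbp4 was lost when all 15 arrays were fitted with that term (adjusted p = 0.392, limma).

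The 12 arrays were also split into 2 sets of 6. In each group the array with the higher 75th percentile of signal went to 1 set and the other array to the other. That each set holds 1 array of each group is thus fixed by the split. The sets are not known batches, and they come from the same signals, so they give no independent check. Within the sets, Id2 KO minus WT in Zbtb46-GFP+ cells was 1.81 and 2.54 for Cd93, 1.80 and 1.71 for Igfbp4, 1.16 and 1.25 for Myb, and 1.16 and 1.29 for Runx1. Batf3 KO minus WT was 1.22 and 1.16 for Cd93 and 1.14 and 0.87 for Igfbp4. With the set as a block, 11 members were called in Id2 KO, 10 of them higher, and 3 in Batf3 KO. Calls over all 19938 genes rose too under that block, to 1212 in place of 361 in Id2 KO and to 250 in place of 67 in Batf3 KO. Centring each array on that percentile instead puts the median gene at -0.125 in Id2 KO against WT, in place of -0.015, with 190 genes higher and 172 lower in place of 218 and 143. It leaves Myb, Cd93 and Igfbp4 higher (1.10, 2.06 and 1.65), and no member called in Batf3 KO. That centring also moves the WT step over all genes to 1153 higher and 858 lower, with 11 members called, in place of 940 and 1272 with 16.

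Near the threshold, in Id2 KO against WT Zbtb46-GFP+ cells, were Hhex (0.67, adjusted p = 0.0518, limma), a homeobox gene of early blood and lymphoid cells, Mef2c (0.56, adjusted p = 0.0856, limma) and Satb1 (0.76, adjusted p = 0.134, limma). Satb1 read 10.56 and 10.70 in Id2 KO and 10.49 and 10.30 in Batf3 KO, against 9.56 and 10.17 in WT. None of these 3 passed.

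Myc, a transcription factor that drives growth, ran the other way. It read 9.69 and 10.02 in Id2 KO and 10.51 and 10.38 in Batf3 KO, against 10.56 and 10.66 in WT Zbtb46-GFP+ cells. Its difference in Id2 KO was -0.75 and did not pass (adjusted p = 0.0886, limma), while its stage step passed in Id2 KO (-1.12, adjusted p = 0.00481, limma) and not in Batf3 KO (-0.04) or WT (-0.34). The difference between the Id2 KO and WT steps was -0.78 and did not pass (adjusted p = 0.603, limma), and the Id2 KO step lost its call without Id2 KO Zbtb46-GFP+ replicate 3 (adjusted p = 0.0589, limma).

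**Figure D3:**
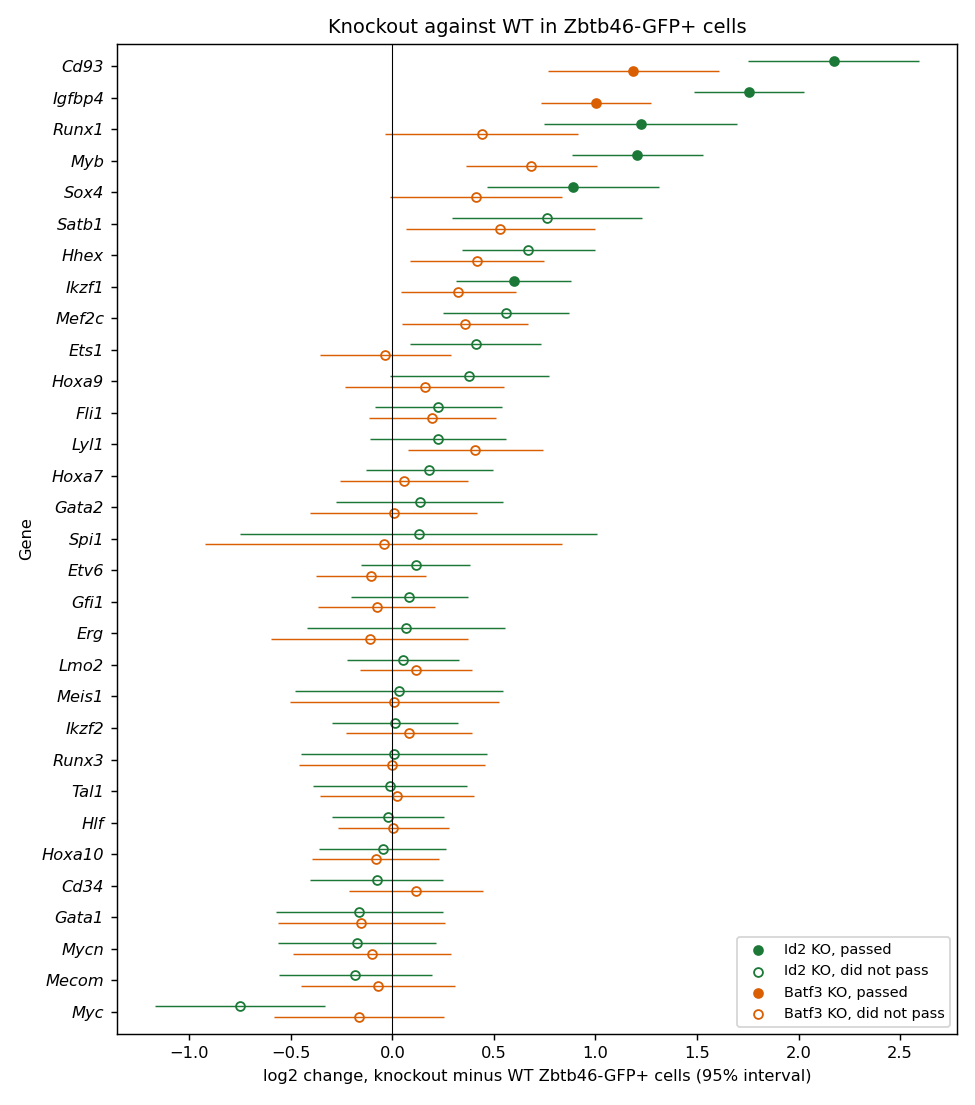
Log2 difference from WT in Zbtb46-GFP+ cells (x axis) for the 31 members (y axis), with Id2 KO above Batf3 KO within a gene and 95% intervals from limma; filled points passed an adjusted p of 0.05. The 6 filled Id2 KO points lie between 0.60 and 2.17, the 2 filled Batf3 KO points at 1.00 and 1.19, and Myc is lowest in both.

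The steps of Cd34 and Erg were much alike in the 3 genotypes. For Erg the Zbtb46-GFP+ means were 6.81 to 6.99, as low as signals above that cannot be told from background. A genotype difference in Erg could be missed there. Cd34 read 8.76 and 9.06 in Id2 KO, 9.08 and 9.12 in Batf3 KO, and 8.97 and 8.997 in WT Zbtb46-GFP+ cells, and in CDPs 11.06 and 11.34 in Id2 KO, 11.52 and 11.46 in Batf3 KO, and 11.31 and 11.54 in WT. Its steps were -2.29 in Id2 KO, -2.39 in Batf3 KO and -2.44 in WT. The 95% interval of its difference from WT in Zbtb46-GFP+ cells ran from -0.41 to 0.25 for Id2 KO and from -0.21 to 0.45 for Batf3 KO, so a difference as large as that of Cd93 lies outside both.

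Erg read 7.0 and 6.97 in Id2 KO, 6.94 and 6.68 in Batf3 KO, and 6.92 and 6.92 in WT Zbtb46-GFP+ cells. The CDP values were 8.68 and 8.82 in Id2 KO, 8.92 and 8.36 in Batf3 KO, and 9.14 and 8.51 in WT. Its steps were -1.77 in Id2 KO, -1.83 in Batf3 KO and -1.91 in WT, and the interval of its difference from WT was -0.42 to 0.55 for Id2 KO and -0.60 to 0.37 for Batf3 KO. In both genes the Zbtb46-GFP+ arrays of all genotypes lie below every CDP array.

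Hoxa9 read 7.003 and 7.36 in Id2 KO, 6.98 and 6.95 in Batf3 KO, and 6.82 and 6.78 in WT Zbtb46-GFP+ cells. In CDPs it read 8.12 and 8.26 in Id2 KO, 8.06 and 7.99 in Batf3 KO, and 8.42 and 7.89 in WT. The knockout arrays all lay above the WT ones in Zbtb46-GFP+ cells, but the intervals of the difference, -0.01 to 0.77 for Id2 KO and -0.23 to 0.55 for Batf3 KO, hold 0. For Meis1 those intervals were -0.48 to 0.55 and -0.50 to 0.52. Meis1 read 7.68 and 7.16 in Id2 KO, 7.62 and 7.17 in Batf3 KO, and 7.41 and 7.37 in WT Zbtb46-GFP+ cells, which overlap. Meis1 in CDPs read 7.93 and 8.12 in Id2 KO, 8.29 and 7.93 in Batf3 KO, and 8.67 and 8.14 in WT.

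Satb1 in CDPs read 11.06 and 11.26 in Id2 KO, 11.38 and 11.18 in Batf3 KO, and 11.48 and 11.02 in WT, so its genotypes overlap there. For Lmo2 the interval of the difference from WT in Zbtb46-GFP+ cells was -0.22 to 0.33 for Id2 KO and -0.16 to 0.39 for Batf3 KO, and for Tal1 -0.39 to 0.37 and -0.36 to 0.40. For Spi1 it was -0.75 to 1.01 for Id2 KO, wide enough to hold the differences of Ikzf1 and Sox4. A p that misses the threshold does not show that these genes are alike in the genotypes. Hoxa9 and Tal1 had Zbtb46-GFP+ means of at most 7.18 and 7.04, low enough that background could hide a difference.

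**Figure D4:**
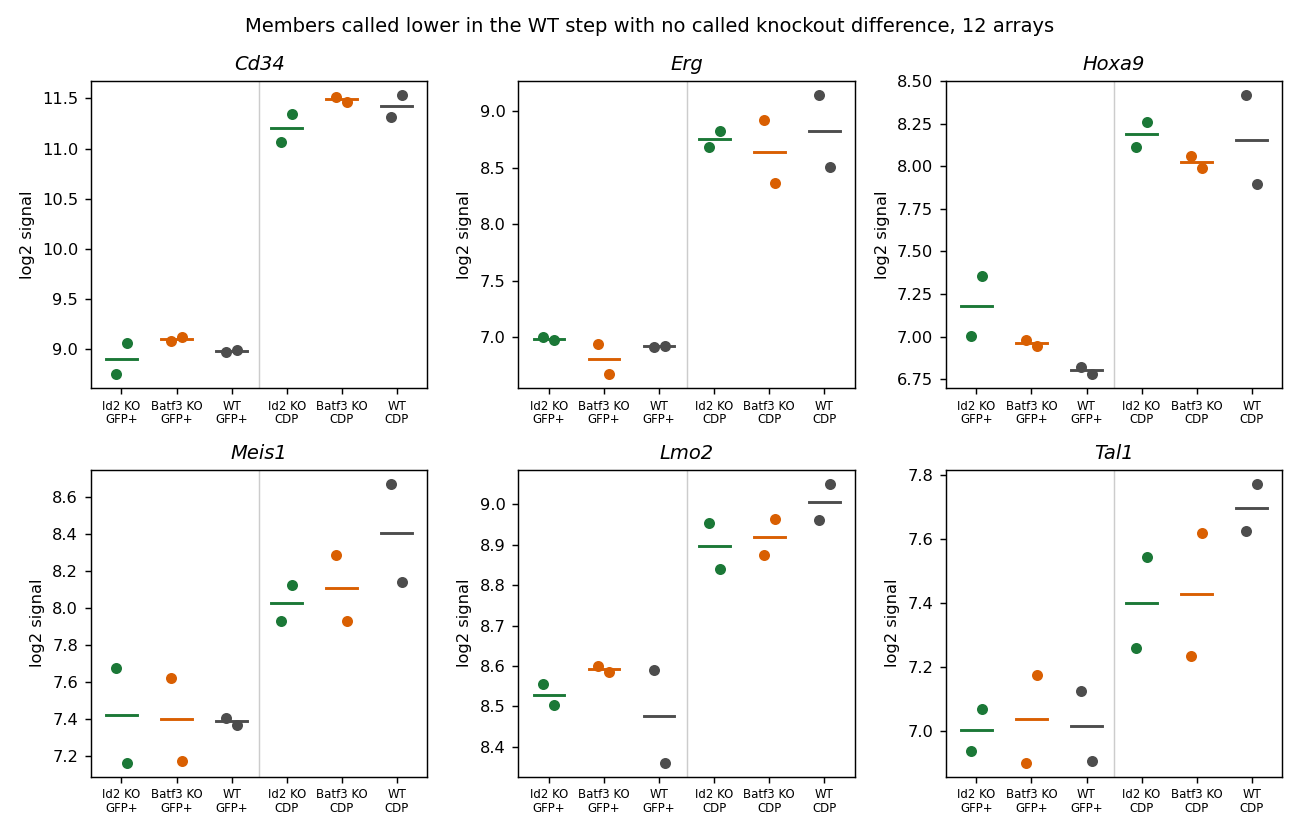
Log2 signal (y axis, a separate range per gene) on each of the 12 arrays for Cd34, Erg, Hoxa9, Meis1, Lmo2 and Tal1, 6 members lower in the WT step with no call between knockout and WT in Zbtb46-GFP+ cells; points are arrays and short lines means of 2. The 3 Zbtb46-GFP+ groups, on the left, lie below the 3 CDP groups in Cd34 and Erg, and their genotypes lie close together.

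In CDPs no member was called between either knockout and WT (0 of 31 each, limma; background 0.0251% for Id2 KO and 0.0502% for Batf3 KO in either direction). At an unadjusted p under 0.05 there was 1 member in each, and the number called stayed at 0 in every alternative run. With stage in the model, 3 of 31 members had a positive Id2 KO interaction, Cd93, Igfbp4 and Myb (background 0.115% higher). None had a Batf3 KO interaction (0 of 31, limma; 6 at an unadjusted p under 0.05; background 0.0953% in either direction), with 1.23 for Cd93 (adjusted p = 0.339) and 0.84 for Igfbp4 (adjusted p = 0.283).

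Of 36 other progenitor factors measured, 2 were higher and 5 lower in the WT step (background 4.71% higher and 6.38% lower). In Id2 KO against WT Zbtb46-GFP+ cells 2 were higher, the granulocyte factor Cebpe (1.10) and the E protein gene Tcf12 (0.71), and Mllt3 was lower (-0.81), while none was called in Batf3 KO (limma, 0 of 36; 5 at an unadjusted p under 0.05). Of 23 other progenitor surface receptors, 3 were higher and 7 lower in the WT step against the same background, with the adhesion receptors Adgrl4 (-3.59) and Adgrg1 (-3.27) and the costimulatory receptor Cd27 (-3.11) changing most. In Id2 KO, 4 of these 23 were higher than WT, Cd33 (1.91), Adgrg1 (1.30), the colony-stimulating factor receptor Csf1r (1.15) and Cd27 (1.13), and Kit was lower (-0.88). In Batf3 KO, 1 was higher, Csf3r (1.11).

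Marker genes of some other cell types were higher in Id2 KO and those of others were not, and their part in the results was not tested. The shares of all genes called were 1.09% higher and 0.717% lower in Id2 KO. In Batf3 KO they were 0.11% and 0.226%. Of 10 plasmacytoid dendritic cell markers, 6 were higher in Id2 KO than in WT Zbtb46-GFP+ cells, among them Ly6d (4.03) and Siglech (3.06), and none in Batf3 KO (limma; 6 at an unadjusted p under 0.05). Their summed linear signal was 18642 to 20690 in Id2 KO, 7936 to 11811 in Batf3 KO and 5419 to 7664 in WT. In CDPs that sum was 7582 to 8977 in Id2 KO, 9588 to 11910 in Batf3 KO and 5764 to 9149 in WT, with no marker called there. Of 14 neutrophil and granule genes, 4 were higher in Id2 KO, among them Elane (2.32), and 1 in Batf3 KO, Prtn3 (1.44), with sums of 50447 to 52968 in Id2 KO, 26524 to 36738 in Batf3 KO and 19783 to 21112 in WT.

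Of 12 lymphoid and B-lineage genes, 2 were higher in Id2 KO (Ly6d and Blnk), with sums of 3272 to 3681 in Id2 KO, 1248 to 1635 in Batf3 KO and 997 to 1059 in WT. Of 12 mast cell and basophil genes 1 was higher in Id2 KO, Mcpt8 (2.88). Their sums were 2443 to 3050 in Id2 KO, 1085 to 1303 in Batf3 KO and 771 to 1298 in WT. In CDPs the sums were 1657 to 3904 in Id2 KO, 892 to 1447 in Batf3 KO and 1003 to 1397 in WT, so Id2 KO was the highest at that stage too. Of 11 erythroid and megakaryocyte genes none was called in either knockout (limma; 1 in each at an unadjusted p under 0.05), with sums of 1017 to 1135 in Id2 KO, 1066 to 1115 in Batf3 KO and 1163 to 1177 in WT. Of 12 monocyte and macrophage genes, 1 was higher and 1 lower in Id2 KO and 2 were higher in Batf3 KO. Of 12 T, NK and innate lymphoid genes, 2 were higher in Id2 KO. Called or not, 9 of 12 genes lay below WT in Id2 KO in each of these 2 lists. Of 17 cell division genes none was called in Id2 KO (12 at an unadjusted p under 0.05) or Batf3 KO (3), all 17 were positive in Id2 KO, with a median difference of 0.44 in Id2 KO and sums of 42845 to 43459 in Id2 KO, 36630 to 38491 in Batf3 KO and 31119 to 37932 in WT.

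The replicate 1 Zbtb46-GFP+ arrays, on their own scale, give single values with no test. Values were identical at 71.7% of probe sets between the arrays labelled Batf3 KO and WT, and at 54.0% on all 3, and whether they are independent samples was not tested. Cd93 read 7.56 in Id2 KO, 6.27 in Batf3 KO and 5.96 in WT. Myb read 7.76 in Id2 KO and 7.10 in both Batf3 KO and WT, and Igfbp4 read 5.07 in Id2 KO and 4.72 in both others. Runx1 read 7.76 in both knockouts and 7.41 in WT, and Sox4 read 5.47 in Id2 KO, 4.41 in Batf3 KO and 4.48 in WT. Of the 31 members, 14 were identical on all 3 arrays, Ikzf1 among them. Id2 KO was above WT in 11 members, below in 4 and tied in 16, against 20.4%, 17.1% and 62.5% of all genes. Batf3 KO was above WT in 9 members, below in 4 and tied in 18, against 11.7%, 13.4% and 74.9% of all genes.

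**Figure D5:**
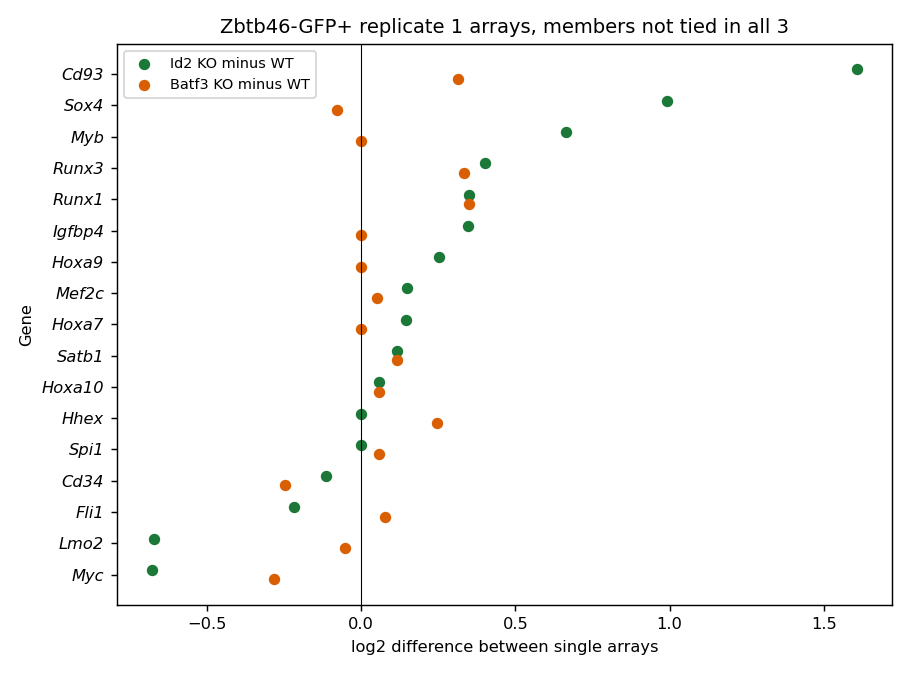
Log2 difference from WT (x axis) between the single replicate 1 Zbtb46-GFP+ arrays, Id2 KO and Batf3 KO, for the 17 members (y axis) that were not identical on all 3 arrays. Cd93, Sox4 and Myb have the largest Id2 KO differences, and Myc and Lmo2 the lowest, with no replicate behind any point.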

How the data were processed

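The 15 Affymetrix Mouse Gene arrays were deposited by the authors as intensity, linear probe set signal from Affymetrix Expression Console with RMA, per the submitters' processing notes; versions and settings are not given in the sources used here. No value was negative and the highest was 21042, so log2 was taken. Per the labels' protocols, biotinylated cDNA was made from sorted cells' total RNA. Of 28853 probe sets, 21789 had 1 gene symbol, 1621 several and 5443 were not in the annotation table; the probe set with the highest mean stood for each of 19938 genes, and 21698 single-symbol probe sets matched RefSeq. The table had 0 columns outside the 15 arrays.

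Comparisons used limma 3.58.1 in R 4.3.3: 6 group means on 12 arrays, empirical Bayes without trend, two-sided, Benjamini-Hochberg over all genes in each of 10 comparisons, called at an adjusted p under 0.05. The replicate 1 Zbtb46-GFP+ arrays enter only alternatives. Same-numbered arrays had residual correlations of -0.63 to 0.68, so the numbers do not pair the samples. The procedure was tested on simulated data. The number of arrays limits the precision. Values on every array are given for members called in a knockout comparison in Zbtb46-GFP+ cells or an interaction, and for the 10 largest called changes of the WT step; from other lists at most 4 called genes are named. The members, lists and rules were chosen with earlier results of these data known. Promoter letters were searched on both strands.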

Additional observations from a re-analysis of the deposited data

Results flagged for a closer look

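The effect of Id2 loss differed between Zbtb46-GFP+ cells and CDPs, by the interaction with stage in limma, for 3 members: by 2.33 for Cd93, 1.80 for Igfbp4 and 1.33 for Myb on the log2 scale, all higher in Zbtb46-GFP+ cells. With all 15 arrays and a term marking the 3 replicate 1 arrays, the call was lost for Igfbp4 (adjusted p = 0.392, limma) and Myb (0.122), and without that term for all 3 genes. Myb also lost it under 75th percentile centring (adjusted p = 0.129, limma) and in 8 of 12 fits that left out 1 array. Some of those arrays lie outside the comparison. Cd93 and Igfbp4 kept it under that centring and in all 12 such fits. The replicate 1 Zbtb46-GFP+ arrays, which enter none of the main comparisons, were above their WT array in Id2 KO by 1.61 for Cd93, 0.99 for Sox4, 0.67 for Myb, 0.35 for Runx1 and 0.35 for Igfbp4, and in Batf3 KO by 0.31 for Cd93 and 0.35 for Runx1. The difference was 0 for Myb and Igfbp4 in Batf3 KO and for Ikzf1 in both knockouts, and Sox4 was -0.08 in Batf3 KO. The array labelled Batf3 KO had the Xist and Kdm5d pattern of WT. These are differences between single arrays and were not tested.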

How the results depend on the processing

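The 46 calls named for members were recomputed under 21 alternatives each. Of 966 values, 815 kept direction and call, 151 lost the call and 0 reversed. With all 15 arrays and no term for the 3 on another scale, 0 members were called in every comparison. With a term for those 3, Batf3 KO against WT in Zbtb46-GFP+ cells had 0 members called and the Id2 KO interaction 1. Under 75th percentile centring, Batf3 KO against WT and Id2 KO against Batf3 KO had 0 members called each, and Myc was called lower in Id2 KO. The sets of that percentile, split within each group by signal, were also used as a block. The member counts were then 14 for the Batf3 KO step, 15 for the Id2 KO step (2 higher) and 11 for Id2 KO against WT. They were 4 for Id2 KO against Batf3 KO, 1 for the Batf3 KO interaction and 7 for the Id2 KO interaction. Calls over all 19938 genes rose too under that block, to 3487, 3234, 1212, 506, 42 and 373 in that order. In the main fit they were 1432, 1359, 361, 118, 19 and 64. Quantile normalization, leaving out the dimmest genes and the empirical Bayes trend each gave 2 for Id2 KO against Batf3 KO. The replicate block rests on numbers that do not pair the samples across all groups. It gave 14, 8 and 8 members in the WT, Batf3 KO and Id2 KO steps. In Id2 KO and Batf3 KO against WT it gave 8 and 2. Over all genes it called 1682, 1179, 1255, 555 and 87 in that order. Averaging probe sets of a gene moved no count by more than 1.5 times. Leaving out each array in turn gave 9 to 16 members in the WT step, 7 to 10 in the Batf3 KO step, 7 to 9 in the Id2 KO step, 0 to 2 in Batf3 KO against WT, 3 to 7 in Id2 KO against WT, 0 to 2 in Id2 KO against Batf3 KO, 0 to 0 in CDPs and 2 to 3 in the Id2 KO interaction. Each fit without an array leaves 1 array in a group, and calls over all genes shifted in such fits as well. The cause of these shifts was not tested. Groups of 2 arrays and a pooled spread limit every call, and low signals have no detection call.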
